A study of Mus musculus with 2 samples.

Results

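In 2 single-cell libraries of MC38 tumors, 754 barcodes were chosen by the share of their transcripts in 5 genes known to respond to low oxygen: Ankrd37, Bnip3, Ero1l, P4ha2 and Mgarp. They were taken from 7532 selected barcodes, themselves a part of 29003 barcodes in all. A selected barcode held at least 8000 UMIs, at most 20% of them mitochondrial, under 0.03% from Ptprc, Tyrobp, Fcer1g and Cd3e together, under 0.1% from Col1a2 and Dcn together, and at most 1 UMI of Cdh5 and Cldn5. The top 10% by the summed UMI share of the 5 genes, with libraries pooled, are called Ero1l-high cells below, and the remaining 6778 are called the other selected cells. Their working name was hypoxic MC38 tumor cells; oxygen was not measured.

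C57BL/6 mice carried subcutaneous MC38 colon carcinoma and were given 3 intratumoral injections at intervals of 3 days. Injections held either MSA-2, a STING agonist, or its vehicle, saline with 10% DMSO; the vehicle library is labelled untreated and negative control. Tumors were taken on day 7 and those of 3 mice were pooled into 1 library per treatment, with mice of both sexes aged 6 to 8 weeks for the tumor models. The spread between tumors is therefore unknown, and every 95% interval printed below holds counting error only. The methods describe the barcodes as immune cells, whereas the labels call them tumor cells; cells were sorted, and the part of sorting in the cell numbers below was not tested. Where values come in pairs, that of the untreated library precedes that of the MSA-2 library, and CPM are UMIs of a gene scaled to a common total over the summed cells.

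The epithelial markers listed for MC38 cells are barely carried by these data. Lgals3 was the only well detected member of 8, at 1256 and 1246 CPM in Ero1l-high cells. Krt8, Krt18, Krt19, Krt7, Cldn4, Cldn7 and Epcam each stayed at or below 0.703 CPM there, so the cells are named by Ero1l and not by an epithelial identity. Vim stood at 4097 and 2726 CPM.

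Low oxygen slows the prolyl hydroxylases that mark HIF alpha subunits for destruction, so that HIF builds up and binds DNA at the core letters ACGTG of hypoxia response elements. Its known targets raise glucose uptake and glycolysis, restrain mitochondrial respiration, buffer acid, and call for new vessels. Solid tumors such as subcutaneous MC38 outgrow their vessels and commonly hold such regions.

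The promoters of the 5 selection genes are shown as a description. These genes were picked because they are known to respond to low oxygen, so a match to ACGTG in them is not independent of that choice. Car9, Egln1 and Slc2a1 stand beside them as examples from outside the selection. Other genes with larger ratios than Egln1 and Slc2a1, such as Adm and Hmox1, are not shown. Each stretch is read 5′ to 3′ on the strand of its gene, from the GRCm38.p6 sequence and transcription starts of NCBI RefSeq, and capitals mark ACGTG or its reverse complement CACGT. The stretches lie at chr14:45318591-45318675 (minus strand) for Ero1l (Ero1a in RefSeq), chr7:138909569-138909654 (minus strand) for Bnip3, chr8:45999851-45999896 (minus strand) for Ankrd37, chr11:54100806-54100890 (plus strand) for P4ha2 and chr3:51396722-51396797 (minus strand) for Mgarp. Those of Car9, Egln1 and Slc2a1 lie at chr4:43506968-43507025 (plus strand), chr8:124949278-124949362 (minus strand) and chr4:119108669-119108744 (plus strand).
Ero1l: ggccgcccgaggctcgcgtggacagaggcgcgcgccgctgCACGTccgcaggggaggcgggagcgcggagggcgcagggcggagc
Bnip3: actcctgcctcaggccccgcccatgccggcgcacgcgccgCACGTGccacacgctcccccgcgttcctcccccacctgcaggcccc
Ankrd37: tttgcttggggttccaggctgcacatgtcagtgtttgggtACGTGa
P4ha2: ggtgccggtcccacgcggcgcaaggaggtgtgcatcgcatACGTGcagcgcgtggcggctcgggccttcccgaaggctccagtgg
Mgarp: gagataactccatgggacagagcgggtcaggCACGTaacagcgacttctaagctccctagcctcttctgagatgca
Car9: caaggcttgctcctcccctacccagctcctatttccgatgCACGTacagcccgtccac
Egln1: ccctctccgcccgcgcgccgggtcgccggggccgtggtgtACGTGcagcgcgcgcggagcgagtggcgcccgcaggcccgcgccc
Slc2a1: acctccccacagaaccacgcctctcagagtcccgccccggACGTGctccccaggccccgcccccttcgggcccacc
All 5 selection genes hold the motif within 250 bases before to 50 bases after the start, against 5886 of 27025 genes (21.8%) in the same promoter table and 6447 of its 32851 promoters (19.6%). In Bnip3 the match is the palindrome CACGTG, an E-box that many other factors share and that 8.09% of genes hold. Of the fixed lists, 16 of 26 genes of glucose uptake and glycolysis with a promoter in the table hold the motif (61.5%), as do 16 of 23 other hypoxia targets (69.6%), 6 of 16 genes of the unfolded protein response (37.5%), 6 of 18 of G2 and mitosis (33.3%), 7 of 22 of the ATF4 response (31.8%) and 2 of 29 interferon-stimulated genes (6.90%). Of all genes at least 2-fold higher in Ero1l-high cells in both libraries, selection genes included, 31 of 56 with a promoter in the table hold it (55.4%). These are descriptions of sequence, and binding was not measured.

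The libraries stand apart in how many cells the selection leaves. After the depth minimum, which 7381 and 7547 barcodes passed, the leukocyte limit took away 1546 barcodes (21.0%) of the untreated library and 713 (9.45%) of the other. The fibroblast limit took away 1047 (17.9%) and 4005 (58.6%) of what was left, the limit on Cdh5 and Cldn5 a further 34 and 48, and 4752 and 2780 barcodes remained. Ero1l-high cells of the MSA-2 library were also deeper, with a median of 29551 UMIs against 23637.5 in the other selected cells, where the untreated library had 23636.5 and 23965.5. Median mitochondrial shares were 2.44% and 2.19% in Ero1l-high cells and 2.69% and 3.06% in the others. Among all barcodes, 53 occur in both libraries, and 0 of them are Ero1l-high cells.

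Ero1l-high cells made up 474 of 4752 selected cells of the untreated library (9.97%, 9.14 to 10.9) and 280 of 2780 of the MSA-2 library (10.1%, 8.98 to 11.3). The log2 ratio of these shares was 0.01 (-0.20 to 0.23), so that the pooled top 10% was drawn from the libraries in near proportion. The split moved with the weight given to Ero1l: with Ero1l left out of the score the same log2 ratio came to -0.57, and with the 5 genes ranked and weighted alike it was -0.52.

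Ero1l, which encodes the oxidase that reforms disulfide bonds in the endoplasmic reticulum, supplied 62.9% and 65.7% of the selection UMIs of these cells and was their most abundant selection gene in 85.0% and 92.5% of them. As a description of the choice, it stood at 1516 and 1300 CPM in Ero1l-high cells against 127 and 151 CPM in the others. Bnip3, a receptor for mitophagy, stood at 499 and 399 CPM against 79.8 and 63.9 CPM. P4ha2, a collagen prolyl hydroxylase subunit, gave 156 and 119 CPM against 25.9 and 29.5 CPM. Ankrd37, an ankyrin repeat protein, gave 145 and 106 CPM against 24.2 and 14.0 CPM, and Mgarp, a mitochondrial protein, 94.7 and 54.7 CPM against 21.2 and 9.95 CPM. These values chose the cells and support nothing further.

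The choice is the upper end of a range and not a separate class. The lowest Ero1l-high cell had 10.3 selection UMIs per 10000, the 10 nearest above it reached up to 10.5, and the 10 nearest below it down to 10.2. Within 10% of the limit lay 81 Ero1l-high cells and 87 others, while the median of all selected cells was 2.19 and the highest 166.6. With every cell drawn down to 8000 UMIs, at least 4 of the 5 genes were seen in 289 of 474 and 102 of 280 Ero1l-high cells. Selection UMIs were not confined to selected cells. At least 2 Cd3e UMIs were held by 389 and 52 barcodes, with median depths of 4703 and 7683. After drawing 2000 UMIs, 24.4% (20.2 to 29.0) and 28.8% (17.1 to 43.1) of these held a selection UMI. In the same drawing, 96.2% and 94.3% of Ero1l-high cells (median depths 23636.5 and 29551) and 37.4% and 35.7% of the other selected cells did.

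**Figure D1:**
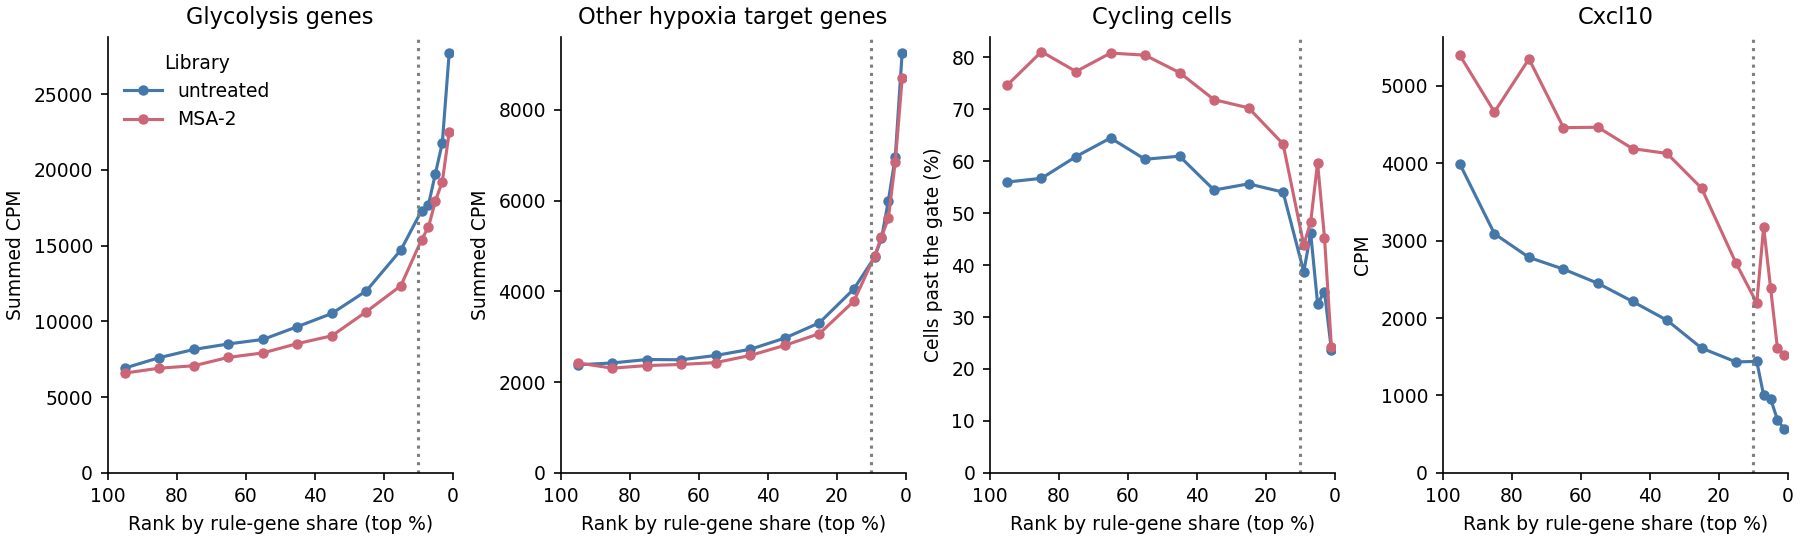
Selected cells ranked by the share of the 5 selection genes, from the lowest on the left to the highest on the right, with points for each 10% and, within the top 10% (right of the dotted line), for each 2%, in the untreated (blue) and MSA-2 (red) libraries. Summed CPM of glycolysis genes climbs from 6916 to 27732 and from 6585 to 22491, with no step at the dotted line, while cycling cells and Cxcl10 are lowest at the right end.

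A part of the genes that low oxygen is known to induce was at least 2-fold higher in Ero1l-high cells than in the other selected cells of the same library. Of 36 further hypoxia targets outside the selection, a list made with earlier results of these data known, 31 could be tested in both libraries and 14 were at least 2-fold higher in both. Across all genes, 70 of 12910 passed that rule (0.542%), the 5 selection genes among them; with 10 CPM added it was 39 genes. Taken alone, the untreated library had 114 of 13836 genes at least 2-fold higher (0.824%) and the MSA-2 library 105 of 13207 (0.795%). The median log2 ratio of the list was 0.88 and 0.69, with 30 of 34 and 28 of 33 genes above 0, against -0.10 and -0.17 over all genes. Its summed level was 6448 and 5991 CPM in Ero1l-high cells against 2860 and 2696 CPM.

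Car9, the membrane carbonic anhydrase that exports acid equivalents, headed the ranking of genes outside the selection with 1 CPM added; with 10 CPM added its log2 ratios were 1.54 and 1.48, below those of Adm (1.88 and 2.08) and Hmox1 (2.08 and 2.20). It stood at 23.6 and 21.8 CPM against 1.58 and 1.41 CPM (log2 3.25 and 3.24), a fold of 14.9 (12.3 to 18.1) and 15.4 (11.98 to 19.95). At 8000 UMIs it was seen in 14.98% and 14.3% of Ero1l-high cells and 1.15% and 1.08% of the others, so that most Ero1l-high cells showed none. After drawing 2000 UMIs, 3.80% and 3.93% of Ero1l-high cells, 0.374% and 0.240% of the other selected cells, and 0.257% and 0% of the Cd3e barcodes held a Car9 UMI. The 0% rests on 52 barcodes, and its interval of 0 to 6.85% holds the 3.93% of Ero1l-high cells.

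Adm, the vasodilator peptide adrenomedullin, stood at 46.7 and 78.2 CPM against 5.41 and 10.9 CPM (log2 2.896 and 2.73), a fold of 8.64 (7.69 to 9.704) and 7.16 (6.43 to 7.96). Hmox1, heme oxygenase, was at 205 and 305 CPM against 40.9 and 58.4 CPM (log2 2.29 and 2.36). Nos2, the inducible nitric oxide synthase, differed between libraries as well as between cells, at 36.9 and 225 CPM against 8.505 and 92.2 CPM (log2 1.99 and 1.28). Over the alternatives Nos2 ran from 0.73 to 1.41 in the MSA-2 library, below 2-fold with a fibroblast limit of 0.5%. Each of these genes was higher in Ero1l-high cells than in the other selected cells in either library. In the Cd3e barcodes Adm stood at 2.21 and 76.5 CPM, Hmox1 at 20.2 and 69.9 CPM, and Nos2 at 2.94 and 76.5 CPM. Adm in the Cd3e barcodes of the MSA-2 library was thus near its level in Ero1l-high cells, although that value rests on 52 barcodes.

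Further genes of the list are given by their role, with no count for a role. Bnip3l, a mitophagy receptor and relative of Bnip3, was at 296 and 229 CPM against 76.2 and 51.6 CPM (log2 1.94 and 2.13). Fam162a, a mitochondrial protein of the hypoxia program, stood at 1493 and 1233 CPM against 408 and 351 CPM (log2 1.87 and 1.81). Higd1a, which binds the respiratory chain, gave 849 and 785 CPM against 228 and 227 CPM (log2 1.89 and 1.79). Genes of vessels and matrix were mixed. Vegfa, the vascular growth factor, was below 2-fold at 214 and 160.3 CPM against 111 and 91.5 CPM (log2 0.94 and 0.80). Plod2, a collagen lysyl hydroxylase, passed at 289.9 and 205 CPM against 121 and 99.9 CPM (log2 1.25 and 1.03), whereas Lox, a lysyl oxidase, stood at 1.92 and 8.43 CPM against 2.24 and 6.901 CPM (log2 -0.15 and 0.26). Hilpda, a lipid droplet protein, stood at 141 and 240.4 CPM against 54.2 and 76.1 CPM (log2 1.36 and 1.65), and Ndrg1 at 458 and 450.2 CPM against 144 and 209 CPM (log2 1.67 and 1.102). Loxl2 was the only gene of the list past the rule in the lower direction, in the MSA-2 library (log2 -0.34 and -1.13).

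Transcripts of glucose uptake and glycolysis were higher for a part of the pathway. In the list of 27 genes of glucose uptake and glycolysis, 12 of the 25 tested in both libraries were at least 2-fold higher in both, beside the 0.542% of all genes. The median log2 ratio was 1.11 and 0.98, with 21 of 26 and 23 of 25 genes above 0, and the summed level was 20911 and 17852 CPM against 9845 and 8578 CPM. With cells drawn to 8000 UMIs, the median Ero1l-high cell held 163 and 138.5 UMIs of the list (quartiles 133 to 200.5 and 118 to 168) and the median other cell 70 and 60 (53 to 93 and 47 to 77). The quartiles do not overlap, so the difference lies in most cells and not in a few.

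Slc2a1, the glucose transporter GLUT1, was at 356 and 327 CPM against 103 and 97.7 CPM (log2 1.79 and 1.73). Inside the pathway, Gpi1, which makes fructose 6-phosphate, stood at 816 and 580.4 CPM against 310.0 and 246 CPM (log2 1.39 and 1.24). Pgk1, phosphoglycerate kinase, gave 1862 and 1614 CPM against 676 and 588 CPM (log2 1.46 and 1.45). At the end of the pathway, Ldha, which turns pyruvate into lactate, was at 1908 and 1671 CPM against 858 and 774 CPM (log2 1.15 and 1.11). Pdk1, the kinase that keeps pyruvate out of mitochondria, was also past 2-fold at 65.2 and 39.9 CPM against 23.1 and 17.3 CPM (log2 1.46 and 1.16). Gapdh, the most abundant transcript of the list, came close to the rule at 6545 and 5639 CPM against 3344 and 2998 CPM (log2 0.97 and 0.91).

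Not every member took part. Hk2, a hexokinase, was below 2-fold at 173 and 224 CPM against 101 and 154 CPM (log2 0.76 and 0.54). Pfkfb3, which feeds an activator to phosphofructokinase, was at 4.42 and 6.21 CPM against 5.33 and 6.29 CPM (log2 -0.22 and -0.02), and Slc2a3, the neuronal glucose transporter, stayed at 0.751 and 1.87 CPM against 1.16 and 2.08 CPM (log2 -0.30 and -0.10). The genes of that list past 2-fold in both libraries include 3 of glycogen metabolism. Gys1, glycogen synthase, was at 69.6 and 64.2 CPM against 17.9 and 20.6 CPM (log2 1.897 and 1.59). Gbe1, the branching enzyme, stood at 59.3 and 86.99 CPM against 20.3 and 28.1 CPM (log2 1.502 and 1.597), and Pgm1, a phosphoglucomutase, at 198 and 159 CPM against 64.6 and 45.2 CPM (log2 1.601 and 1.796).

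Genes of the HIF pathway and oxygen sensing had smaller ratios. Of 15 genes, 14 were tested in both libraries and 2, Egln1 and Bhlhe41, were at least 2-fold higher in both, beside the 0.542% of all genes. The median log2 ratio of the list was 0.51 and 0.36. Egln1, the main prolyl hydroxylase acting on HIF alpha and itself a HIF target, stood at 468 and 327 CPM against 138 and 102 CPM (log2 1.75 and 1.67). Egln3, another of these hydroxylases, lay at the limit with 151 and 75.99 CPM against 75.6 and 36.9 CPM (log2 0.99 and 1.02). Bhlhe41, a transcriptional repressor, was scarce at 9.76 and 14.6 CPM against 4.37 and 2.53 CPM (log2 1.003 and 2.15). The alpha subunit Hif1a was at 109 and 158 CPM against 86.4 and 123 CPM (log2 0.33 and 0.36), its partner Arnt at 67.8 and 57.5 CPM against 80.8 and 69.7 CPM (log2 -0.25 and -0.27), and Epas1 stayed at 0.667 and 1.52 CPM against 0.418 and 1.75 CPM (log2 0.23 and -0.13).

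**Figure D2:**
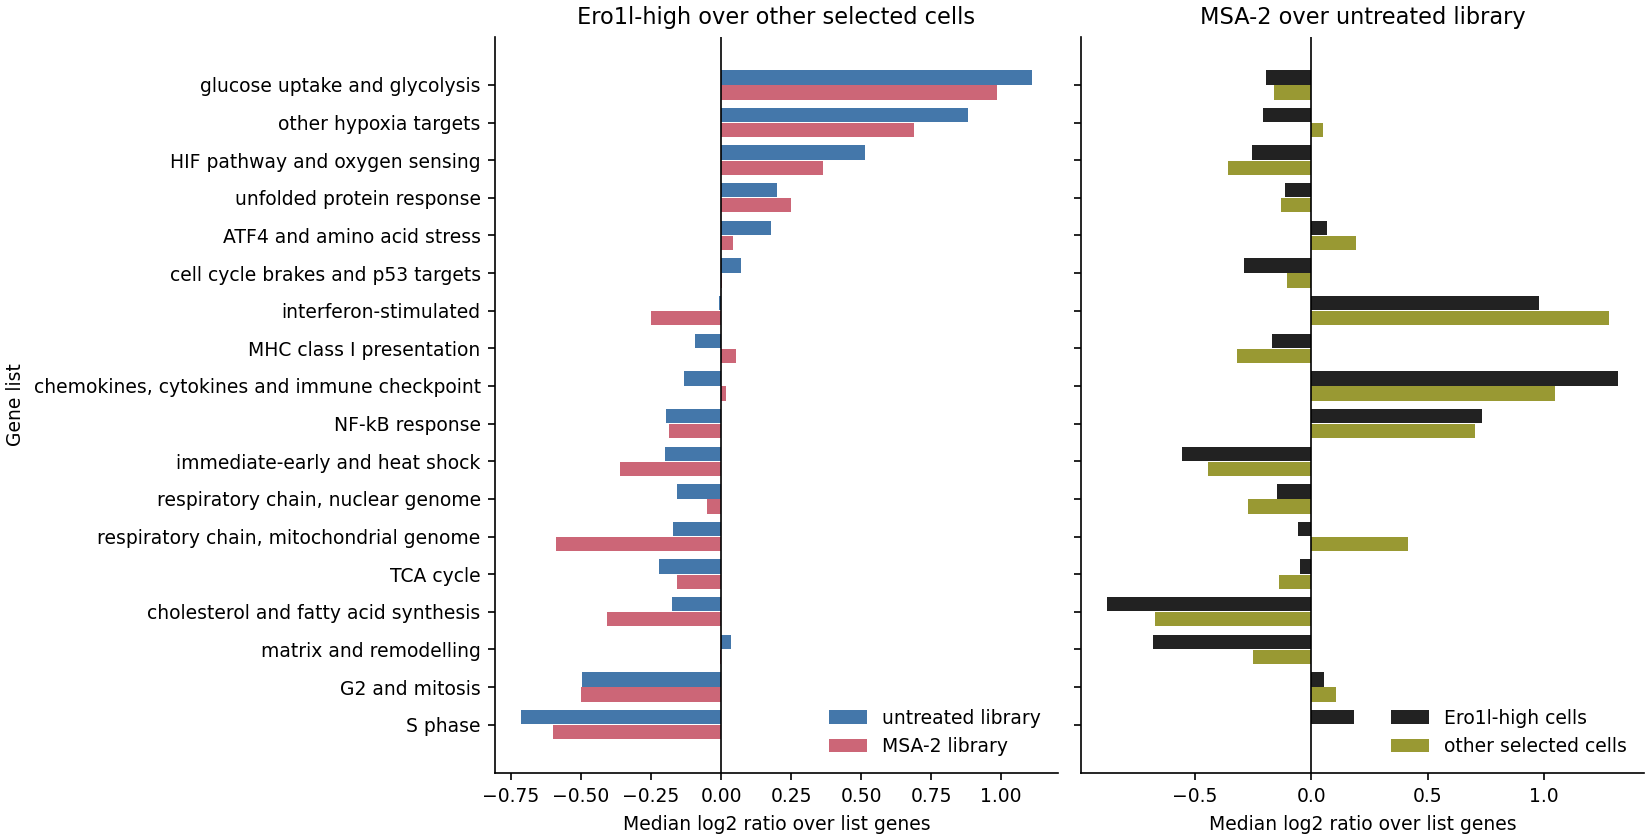
Median log2 ratio over the genes of each list shown: left, Ero1l-high over other selected cells in the untreated (blue) and MSA-2 (red) libraries; right, MSA-2 over untreated library in Ero1l-high (black) and other selected cells (olive). Glycolysis (1.11 and 0.98) and other hypoxia targets (0.88 and 0.69) stand highest of these on the left and S phase (-0.72 and -0.60) lowest; on the right the interferon-stimulated list is at 0.98 and 1.28.

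Stress programs that often accompany low oxygen had medians nearer to 0. Among 25 genes of the ATF4 response to amino acid shortage the median log2 ratio was 0.18 and 0.04, and 2 of 24 tested, Ddit3 and Vldlr, were at least 2-fold higher in both libraries, beside the 0.542% of all genes. Ddit3, which encodes the stress factor CHOP, was at 256 and 336 CPM against 121 and 159 CPM (log2 1.08 and 1.08); over the alternatives its log2 ratio ran from 0.83 to 1.37 and from 0.85 to 1.200, so that it was not always past 2-fold. Vldlr, a lipoprotein receptor, stood at 62.2 and 53.5 CPM against 19.6 and 21.1 CPM (log2 1.62 and 1.300). Atf4 itself was at 469.5 and 442 CPM against 400.5 and 423 CPM (log2 0.23 and 0.06), and Asns, asparagine synthetase, at 384 and 397 CPM against 309 and 320.0 CPM (log2 0.31 and 0.31). In the unfolded protein response, 14 of 18 and 16 of 18 genes had ratios above 0 with a median of 0.20 and 0.25, and 0 passed the fold rule in either library. Its chaperone Hspa5 gave 1219.9 and 1181 CPM against 899 and 819 CPM (log2 0.44 and 0.53).

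Ero1l-high cells were less often in cycle. With UMIs of at least 3 of 10 cycling genes required at 8000 UMIs, 34.8% (30.5 to 39.3) of them cycled in the untreated library against 58.2% (56.7 to 59.6) of the others. In the MSA-2 library it was 46.1% (40.1 to 52.1) against 75.4% (73.6 to 77.0). The intervals of the 2 groups are apart in each library, but they count cells and hold no spread between tumors. Without drawing down, the shares were 67.9% against 80.2% and 82.1% against 91.5%, so the size of the gap depends on depth and its direction does not.

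**Figure D3:**
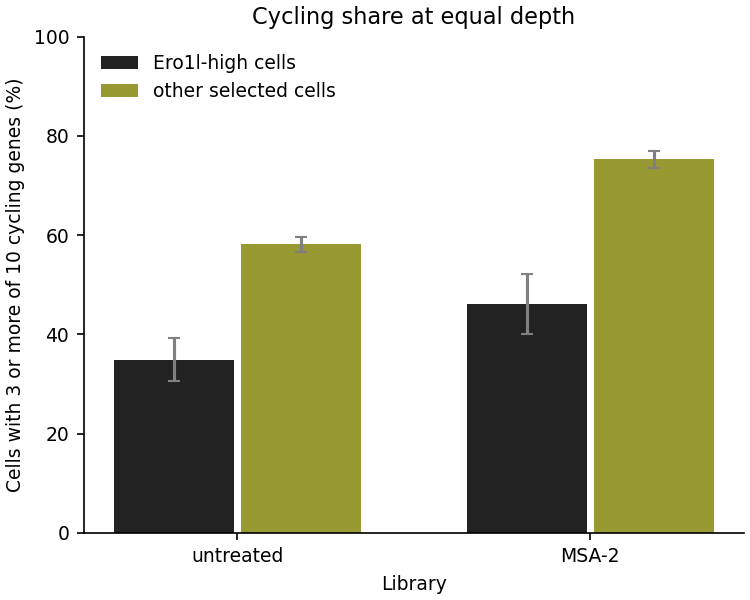
Share of cells with UMIs of at least 3 of 10 cycling genes at 8000 UMIs, as bars with 95% Clopper-Pearson intervals, for Ero1l-high (black) and other selected cells (olive) of each library. The bars stand at 34.8% and 58.2% in the untreated library and 46.1% and 75.4% in the MSA-2 library.

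All 20 S phase genes were lower in Ero1l-high cells in both libraries, with a median log2 of -0.72 and -0.60. Most of these differences are under 2-fold: 4 genes passed the rule in the untreated library, where 50 of 13836 genes were at least 2-fold lower (0.361%), and 1 in the MSA-2 library, where 204 of 13207 were (1.54%). Only Cdc6, which loads the replicative helicase, passed in both, at 7.34 and 8.196 CPM against 16.9 and 18.7 CPM (log2 -1.100 and -1.102), as did 18 of 12910 genes in all (0.139%). That count of 18 became 10 with TMM factors, 1 with 10 CPM added and 35 among cells that did not cycle. Mcm5, a subunit of that helicase, stood at 21.2 and 25.3 CPM against 41.9 and 43.8 CPM (log2 -0.95 and -0.77). For G2 and mitosis the median was -0.50 and -0.50, with 20 of 20 and 19 of 20 genes below 0. Mki67 was at 46.97 and 60.2 CPM against 70.1 and 86.1 CPM (log2 -0.57 and -0.51), and Plk1, a mitotic kinase, at 21.3 and 20.1 CPM against 37.1 and 42.2 CPM (log2 -0.77 and -1.03).

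Brakes of the cycle did not move together. Cdkn1a, the inhibitor p21, was the only gene of 15 at least 2-fold higher in both libraries, beside the 0.542% of all genes, at 229 and 272 CPM against 92.4 and 114 CPM (log2 1.300 and 1.25). Cdkn2a, which encodes p16 and p19ARF, stood the other way at 33.2 and 43.1 CPM against 61.2 and 115 CPM (log2 -0.86 and -1.39). The median of the 15 genes was 0.07 and 0.00. Summed levels of hypoxia genes were higher in Ero1l-high cells that did not cycle, too. Among cells below the cycling gate, the glycolysis list summed to 21856 and 18316 CPM in Ero1l-high cells against 9765 and 8805 CPM. Other hypoxia targets summed to 6896 and 6451 CPM against 3026 and 2962 CPM.

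**Figure D4:**
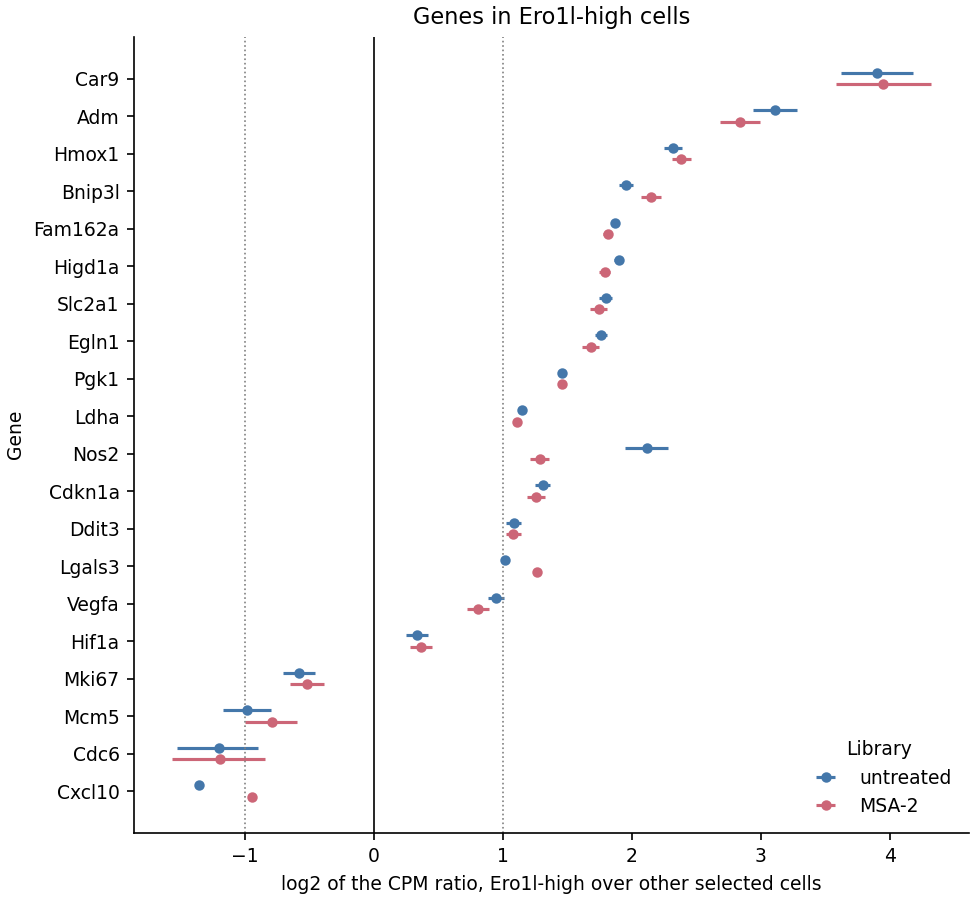
Ratio of CPM in Ero1l-high over other selected cells on a log2 scale for 20 genes of the fixed lists, with 95% intervals of the counts, in the untreated (blue) and MSA-2 (red) libraries; dotted lines mark 2-fold. Car9, Adm and Hmox1 lie farthest to the right, at folds of 14.9, 8.64 and 5.001 in the untreated library, and Cdc6 and Cxcl10 farthest to the left.

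No respiratory chain gene of either genome was past 2-fold, and medians were below 0, as were those of all genes. Of 31 respiratory chain genes of the nuclear genome, 29 in the untreated library and 18 in the MSA-2 library were below 0. Their medians were -0.16 and -0.05 beside -0.10 and -0.17 over all genes, of which 34.7% and 29.99% were above 0. The nuclear median of the MSA-2 library was thus not below that of all genes, and over the alternatives it ran from -0.07 to 0.07. The 13 transcripts of the mitochondrial genome had medians of -0.17 and -0.59, so that the MSA-2 library showed the wider gap. An example is mt-Atp6, a subunit of ATP synthase, at 7436 and 5863 CPM against 8655 and 10022 CPM (log2 -0.22 and -0.77), while mt-Co1 stood at 3677 and 4489.6 CPM against 3172 and 4237 CPM (log2 0.21 and 0.08). For the TCA cycle the medians were -0.22 and -0.16. Cholesterol and fatty acid synthesis was at -0.17 and -0.41, beside the same medians of all genes, with 19 of 22 and 22 of 22 genes below 0; over the alternatives its median ran from -0.28 to -0.02 and from -0.47 to -0.26. Idi1, isopentenyl diphosphate isomerase, stood at 28.4 and 15.9 CPM against 51.8 and 27.6 CPM (log2 -0.84 and -0.76), and Fasn, fatty acid synthase, at 75.5 and 77.98 CPM against 111 and 126 CPM (log2 -0.54 and -0.68).

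Beyond the lists, the 15 highest genes by the smaller of both ratios, among 5822 with enough counts, held 3 that no list contains. Itpk1, a kinase of inositol phosphates, was at 62.1 and 91.3 CPM against 13.5 and 19.97 CPM (log2 2.12 and 2.14). Prelid2, of a family of lipid transfer proteins, stood at 114 and 100.5 CPM against 32.3 and 25.5 CPM (log2 1.78 and 1.94). Cda, cytidine deaminase, gave 132 and 168 CPM against 44.00 and 56.4 CPM (log2 1.56 and 1.56). In total 32 of the 70 genes higher in both libraries and 17 of the 18 lower lie in no list. The 15 lowest genes were mostly of replication and chromatin. Mns1 was at 9.93 and 11.01 CPM against 22.5 and 24.6 CPM (log2 -1.103 and -1.09), Hist1h2ae, a histone gene, at 20.1 and 46.6 CPM against 43.3 and 102 CPM (log2 -1.07 and -1.12), and Hirip3, a histone binding protein, at 13.9 and 21.2 CPM against 30.3 and 44.3 CPM (log2 -1.07 and -1.03). Pclaf, a partner of PCNA, stood at 64.5 and 54.9 CPM against 130.0 and 108 CPM, and Tk1, thymidine kinase, at 32.5 and 29.4 CPM against 65.5 and 56.7 CPM (log2 -0.99 and -0.92). Gart, of purine synthesis, gave 22.4 and 38.3 CPM against 49.5 and 74.5 CPM (log2 -1.11 and -0.94), and Elovl6, a fatty acid elongase, 19.6 and 13.1 CPM against 38.9 and 28.2 CPM (log2 -0.95 and -1.05). Also in that rank were Cenps, Cenpm, Hist1h1b, Hist1h4d, Cxcl10, Pop1 and Dtl, with log2 ratios between -0.93 and -1.35 in either library.

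Among genes of other tumor cell states, Areg, an EGF receptor ligand, was higher at 53.97 and 47.5 CPM against 20.9 and 18.2 CPM (log2 1.33 and 1.34), and Krt14, a keratin, was level at 26.5 and 11.8 CPM against 26.3 and 10.8 CPM (log2 0.01 and 0.12). In the state of Aspn, Enpp2 and Csmd3 the median was -0.05 and -0.84. There 0 and 1 of 3 were at least 2-fold lower, beside 0.361% and 1.54% of all genes. Aspn was at 35.3 and 1.05 CPM against 36.5 and 4.67 CPM (log2 -0.05 and -1.47). In that of Chrm3 and Rbfox1 it was -0.12 for 1 gene and -0.68 for 2. Lgals3, which binds galactosides, passed the rule at 1256 and 1246 CPM against 619 and 519 CPM (log2 1.02 and 1.26). Keratins and genes of epithelial-mesenchymal change had medians of 0.10 and 0.05, and matrix genes 0.04 and -0.00.

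A list of 25 chemokines, cytokines and checkpoint genes had median log2 ratios of -0.13 and 0.02, beside -0.10 and -0.17 over all genes, with 7 of 23 and 13 of 25 above 0. Of these, 3 of 21 and 1 of 23 were at least 2-fold lower, beside 0.361% and 1.54% of all genes, and 0 of 20 in both libraries. Its sums were 3466 and 8718 CPM against 5973 and 11307 CPM. Cxcl10, which draws CXCR3-bearing T and NK cells, made up much of that gap at 932 and 2239 CPM against 2380.3 and 4306 CPM (log2 -1.35 and -0.94), past 2-fold in the untreated library and, over the alternatives, between -1.40 and -0.80 in the MSA-2 library. Its UMIs were spread widely. After drawing 2000 UMIs, 55.5% and 94.2% of the 389 and 52 Cd3e barcodes held one. For Ero1l-high cells it was 59.7% and 80.4%, and for the others 83.0% and 94.4%. Cxcl9, another ligand of CXCR3, was lower in the untreated library and level in the MSA-2 library, at 50.7 and 119 CPM against 170.2 and 108 CPM (log2 -1.73 and 0.14). Ccl2, which recruits monocytes, stood at 605 and 1228 CPM against 1223 and 1801 CPM (log2 -1.01 and -0.55). Interferon-stimulated genes had medians of -0.01 and -0.25, and 0 of 34 passed in either library. MHC class I presentation was at -0.09 and 0.05, and the NF-kB response at -0.20 and -0.19.

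Summed levels of the listed markers of other cell types are given here for Ero1l-high against other selected cells. The 12 macrophage markers, led by Apoe, summed to 889 and 211 CPM against 919 and 244 CPM. The 10 fibroblast markers, led by Col3a1, gave 1649 and 638 CPM against 1291 and 736 CPM. The 10 neutrophil markers, led by S100a9, gave 24.9 and 421 CPM against 6.18 and 513 CPM, where 3 of 7 tested were at least 2-fold higher in the untreated library, beside 0.824% of all genes, although 96.6% of its Ero1l-high cells held none at 8000 UMIs. T and NK cell markers gave 38.6 and 13.0 CPM against 37.9 and 13.7 CPM, and endothelial and pericyte markers 12.3 and 8.78 CPM against 15.1 and 13.4 CPM. Genes of plasma cells were in no list and are named here for their size: Igkc, an immunoglobulin light chain, was lower at 11.01 and 4.098 CPM against 105 and 18.3 CPM (log2 -3.14 and -1.92), and Jchain, which joins immunoglobulins, at 0.334 and 0.117 CPM against 7.76 and 1.31 CPM (log2 -2.72 and -1.05). The part of all these in the differences above was not tested.

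Within Ero1l-high cells, summed glycolysis genes and other hypoxia targets climbed with every slice toward the top of the ranking. From the lowest to the highest of 5 slices, each with 2% of all selected cells, glycolysis genes went from 17311 to 27732 CPM in the untreated and from 15399 to 22491 CPM in the MSA-2 library. Other hypoxia targets went from 4752 to 9263 CPM and from 4775 to 8703 CPM. Car9 stood at 8.31 and 12.8 CPM in the lowest slice and at 36.7 and 43.4 CPM in the highest, with 42.2 CPM just below the highest in the untreated library. Cycling cells went unevenly, from the lowest slice to the highest at 38.7%, 46.2%, 32.6%, 34.9% and 23.7% in the untreated and 43.9%, 48.3%, 59.7%, 45.3% and 24.3% in the MSA-2 library. Cxcl10 went down with every slice in the untreated library, at 1441, 1003, 957, 686 and 561 CPM, and went up and then down in the other, at 2194, 3177, 2392, 1610 and 1528 CPM. Just outside the limit, in the next 10% of cells, glycolysis genes were at 14714 and 12352 CPM, so that Ero1l-high cells continue a slope that begins among the others.

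Between treatments, Ero1l-high cells were chosen at 1 common limit of a hypoxia score, so that levels of hypoxia genes in them are bound by the choice, and their values are a description. In these cells 236 of 10656 genes were at least 2-fold higher in the MSA-2 than in the untreated library (2.21%) and 302 were at least 2-fold lower (2.83%). In the other selected cells it was 423 of 14830 (2.85%) and 224 (1.51%). With 10 CPM added it was 88 and 93 in Ero1l-high cells and 123 and 48 in the others. A fibroblast limit of 0.5% gave 376 higher genes in Ero1l-high cells, and other cells that did not cycle had 359 lower genes. None of the 24 glycolysis genes tested in Ero1l-high cells passed 2-fold in either direction. The median log2 ratio of that list was -0.20 in Ero1l-high and -0.16 in the other selected cells, against -0.06 and 0.01 over all genes. Other hypoxia targets had medians of -0.21 and 0.05, with 2 of 30 tested higher in Ero1l-high cells, Nos2 and Lox. Nos2 rose with 36.9 and 225 CPM (log2 2.58), where the others had 8.505 and 92.2 CPM (3.29). Lox rose from a low level with 1.92 and 8.43 CPM (log2 1.69), where the others had 2.24 and 6.901 CPM (1.29). Car9 was level with 23.6 and 21.8 CPM (log2 -0.11), where the others had 1.58 and 1.41 CPM (-0.10).

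Interferon-stimulated genes were higher in the MSA-2 library, in Ero1l-high cells as in the others. All 34 had ratios above 0 with a median log2 of 0.98, and 16 rose at least 2-fold, beside 2.21% of all genes; in the other selected cells the median was 1.28, with 32 above 0 and 21 past 2-fold, beside 2.85% of all genes. Rsad2, an antiviral enzyme, rose with 185 and 795 CPM (log2 2.097), where the others had 168 and 1042 CPM (2.63). Ifit1, which binds viral RNA, rose with 60.9 and 259.6 CPM (log2 2.07), where the others had 74.1 and 366 CPM (2.29). Cmpk2, a mitochondrial nucleotide kinase, rose with 20.5 and 57.96 CPM (log2 1.45), where the others had 15.6 and 81.9 CPM (2.32). At 8000 UMIs the median Ero1l-high cell held 31.0 and 56.5 UMIs of the list and the median other cell 35.0 and 66.0, with overlapping quartiles (20 to 45 and 41 to 79; 23 to 51 and 45 to 97).

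Chemokines and cytokines rose in 14 of 21 tested genes of Ero1l-high cells and fell in 1, Cxcl16, beside 2.21% and 2.83% of all genes, with a median log2 of 1.32, against 1.05 in the others. Cxcl1, a neutrophil attractant, rose with 799.9 and 2708 CPM (log2 1.76), where the others had 1079 and 2650.3 CPM (1.296). Ccl5, a T cell attractant, rose with 115 and 603 CPM (log2 2.38), where the others had 179.6 and 486 CPM (1.43). Csf3, the granulocyte growth factor, rose from almost nothing with 0.0834 and 16.5 CPM (log2 4.01), where the others had 0.240 and 17.1 CPM (3.87). Cd274, which encodes PD-L1, rose with 24.6 and 97.8 CPM (log2 1.95), where the others had 36.6 and 141 CPM (1.92). Ido1, the tryptophan-degrading enzyme, stayed scarce with 0.167 and 1.05 CPM (log2 0.82), where the others had 0.623 and 3.23 CPM (1.38). All 15 genes of the NF-kB response had ratios above 0 with a median of 0.73, and 4 of them rose, beside the same 2.21%. Saa3, an acute phase protein, was the highest gene of the ranking with 2.09 and 104 CPM (log2 5.08), where the others had 2.17 and 125 CPM (5.31), and Lcn2, a siderophore binder, rose with 0.334 and 40.7 CPM (log2 4.97), where the others had 0.338 and 45.9 CPM (5.13).

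Other genes at the head of that ranking of 6082 were Retnlg, S100a8, Slpi, Slfn4, Ptx3, S100a9, Rarres2 and G0s2. Ptx3, a soluble pattern receptor, rose with 2.59 and 59.1 CPM (log2 4.07), where the others had 1.32 and 24.96 CPM (3.49). Retnlg, S100a8, S100a9 and G0s2 are neutrophil markers. Of that list, 6 of 7 tested rose in Ero1l-high cells, beside 2.21% of all genes. Its sum went from 24.9 to 421 CPM in Ero1l-high cells and from 6.18 to 513 CPM in the others. S100a9 was its most abundant gene, and Ly6g went from 0 to 0.937 CPM. Whether these reads lie in the cells or in free RNA was not tested.

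On the lower side stood H2-Eb1, H2-Aa, Aspn, Cd74, H2-Ab1, S100a16, Csmd3, Trp53i11, Nr4a3 and Ogn. H2-Eb1, a chain of MHC class II, fell with 98.02 and 2.93 CPM (log2 -4.66), where the others had 105 and 4.51 CPM (-4.27). Cd74, the invariant chain, fell with 141 and 7.03 CPM (log2 -4.14), where the others had 144 and 11.6 CPM (-3.52). Macrophage markers fell alongside: 8 of 11 tested were at least 2-fold lower in Ero1l-high cells, beside 2.83% of all genes. The sum of all 12 went from 889 to 211 CPM in Ero1l-high cells and from 919 to 244 CPM in the others. Apoe was the most abundant, and Adgre1 stood at 3.92 and 0.820 CPM. T and NK cell markers had 5 of 6 tested lower, beside the same 2.83%, with sums of 38.6 and 13.0 CPM. Fibroblast markers had 4 of 10 lower and 1 higher, beside 2.83% and 2.21% of all genes, with sums of 1649 and 638 CPM. The part of these cell types in the differences between libraries was not tested.

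Aspn, a small proteoglycan of matrix, fell with 35.3 and 1.05 CPM (log2 -4.14), where the others had 36.5 and 4.67 CPM (-2.73). Matrix genes had a median log2 of -0.68 in Ero1l-high cells and -0.25 in the others, with 5 of 16 tested at least 2-fold lower and 2 higher in Ero1l-high cells, beside 2.83% and 2.21% of all genes, and 0 of 21 lower and 1 higher in the others, beside 1.51% and 2.85%. All these cells had passed the limit on Col1a2 and Dcn, which took away 17.9% and 58.6% of barcodes; its part in these values was not tested. Sparc, a collagen-binding protein, fell with 849.9 and 376 CPM (log2 -1.17), where the others had 647 and 353 CPM (-0.87). Cholesterol and fatty acid synthesis had a median of -0.88, with 7 of 22 genes at least 2-fold lower, beside the same 2.83%, and -0.67 in the others. Scd2, a fatty acid desaturase, fell with 165 and 41.4 CPM (log2 -1.97), where the others had 106 and 48.7 CPM (-1.11), and Insig1, a sterol sensor, with 41.6 and 9.95 CPM (log2 -1.96), where the others had 43.5 and 18.2 CPM (-1.21). Immediate-early and heat shock genes had a median of -0.56 and 4 of 16 lower, again beside 2.83%. Fos fell with 1529 and 619.6 CPM (log2 -1.302), where the others had 1629.9 and 1028 CPM (-0.66). The mitochondrial transcripts were level in Ero1l-high cells (-0.06) and stood at 0.42 in the others. Treatment cannot be told apart from other differences between the libraries.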

How the data were processed

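Single-cell RNA-seq of MC38 tumors was read from 2 libraries, 1 untreated (vehicle) and 1 MSA-2, made with 10x Chromium 3′ v3.1 chemistry. Values in the deposited matrices are unnormalized counts of UMIs for 29003 barcodes, kept by a quality filter of the authors whose limits are not stated. Cell Ranger is given as 7.0.1 in the file headers, 7.0.0 in the processing notes and 7.1.0 in the methods, with mm10 in the notes.

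Cells were chosen by depth, mitochondrial share and marker limits as the report states, and the top 10% by the summed share of 5 genes were compared with the other selected cells. This choice and the gene lists were made with earlier results of these data known. UMIs were summed over the cells of each group and scaled to CPM, and log2 ratios were taken with 1 CPM added. A list median covers genes with at least 20 UMIs in the groups compared; a gene was called at 2-fold or more among genes with at least 50 UMIs. Named genes are those of 30 fixed lists (479 of 481 genes are in the files), the 15 highest and 15 lowest by the smaller of the 2 libraries' ratios with the same sign, and the 10 highest and 10 lowest of MSA-2 over untreated in Ero1l-high cells, among genes with at least 20 CPM and 50 UMIs, selection genes left out. Igkc and Jchain fall outside this rule and were named for their size after the data were seen. A symbol shared by 2 identifiers stayed with the earlier. Cells were drawn at random without replacement to 8000 UMIs for shares and per-cell medians (seed 1).

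Shares carry exact 95% Clopper-Pearson intervals, and ratios of counts exact conditional binomial ones. With 1 library per treatment no test, p-value or standard error was computed. Scrublet (scanpy 1.11.5), run per library at an expected 0.8% per 1000 barcodes, marked doublets that were kept: 5 and 3 of the Ero1l-high cells were called, and an alternative leaves them out. Alternatives also cover the size of the top group, the score, depth and marker limits, edgeR 4.0.16 TMM factors in R 4.3.3, filters and the added constant. Promoters came from a table of 300 bases per RefSeq start on GRCm38.p6, searched for ACGTG on both strands. Computations used numpy 2.4.6, pandas 2.3.3, scipy 1.17.1 and matplotlib 3.10.9 under Python 3.11.15, and ratios and intervals were tested on simulated data. Results for some genes are not reported here.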

Additional observations from a re-analysis of the deposited data

How the results depend on the processing

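Of 545 alternative values for the main results 475 stayed within the 95% interval of the main value, or within 1.5 times its count, and 70 moved past it. Of 624 values for further results 153 moved past it, 152 of them among 480 values of single genes and the other the untreated median of cholesterol and fatty acid synthesis (-0.02 with the top 20%), and 0 of these changed sign. For list medians that interval is an order-statistic interval over the genes of the list, a spread between genes and not counting error. For single genes it is the interval of the counts, shifted to the ratio with 1 CPM added; the shift was made after the data were seen, because values equal to the main one had been marked as moved without it. Over all alternatives Car9 ran from 1.54 to 3.57 (untreated) and 1.48 to 3.49 (MSA-2), Adm from 1.88 to 3.01 and 2.08 to 2.88, Hmox1 from 1.93 to 2.66 and 2.04 to 2.48, Nos2 from 1.34 to 2.22 and 0.73 to 1.41, and Cxcl10 from -1.73 to -1.07 and -1.40 to -0.80. Results with their interval on 1 side of 0 kept their sign throughout. The log2 ratio of shares (-0.57 to 0.11) and the MSA-2 median of the nuclear respiratory chain (-0.07 to 0.07), whose intervals hold 0, took both signs. Medians of Ero1l-high over other cells ranged from 0.91 to 1.21 (untreated) and 0.91 to 1.13 (MSA-2) for glycolysis, 0.70 to 1.11 and 0.53 to 0.86 for other hypoxia targets, -0.98 to -0.40 and -0.76 to -0.43 for S phase, and -0.67 to -0.26 and -0.69 to -0.32 for G2 and mitosis. The interferon-stimulated median of MSA-2 over untreated ranged from 0.84 to 1.02 in Ero1l-high cells. The moved values of the main results follow by setting, untreated before MSA-2 and lower genes meaning at least 2-fold lower. Unless the setting itself makes the value what it is, the cause was not tested.

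With the top 5% S phase was -0.98 and -0.76, G2 and mitosis -0.69 (MSA-2), and 30.3% of Ero1l-high cells cycled (untreated). With the top 20% S phase was -0.40 and -0.43, G2 and mitosis -0.26 and -0.32, and 44.6% and 54.4% cycled. With the score taken after drawing to 8000 UMIs 52.3% cycled (MSA-2). With cells chosen on a random part of their UMIs and read in the remainder 63.4% and 80.2% of other cells cycled, counting only cells whose remainder held 8000 UMIs. With at least 12000 UMIs 60.3% of other cells cycled (untreated). With a leukocyte limit of 0.01% S phase was -0.71 (MSA-2), G2 and mitosis -0.67 and cycling of other cells 55.6% (untreated). With ranked selection genes the log2 ratio of shares was -0.52, S phase -0.61 (untreated), G2 and mitosis -0.32 and -0.58, MSA-2 over untreated for glycolysis -0.10, and 40.5% of Ero1l-high cells cycled (untreated). G2 and mitosis was -0.40 (MSA-2) without Ankrd37 and -0.65 (untreated) without Bnip3, and the log2 ratio of shares was -0.57 without Ero1l.

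TMM factors put S phase at -0.63 (untreated), G2 and mitosis at -0.41 and -0.38, and nuclear respiratory chain at -0.065 (untreated), with 27 and 128 lower genes and 10 in both. They shift all ratios by 0.09 and 0.12, and the share of genes above 0 went from 34.7% to 44.4% and from 29.99% to 40.7%. With 10 CPM added S phase was -0.60 and G2 and mitosis -0.42 (untreated), 51 and 48 genes were at least 2-fold higher (39 in both) and 5 and 10 lower (1 in both). MSA-2 over untreated then had 88 higher and 93 lower genes in Ero1l-high cells and 123 and 48 in the others. The larger constant shrinks ratios of scarce genes. Cycling shares were 67.9% and 82.1% (others 80.2% and 91.5%) without drawing, 53.4% and 63.9% (73.4% and 87.4%) at 2 genes, and 28.9% and 38.2% (47.5% and 63.4%) at 4.

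Further alternatives were chosen after seeing the data. A fibroblast limit of 0.5% put G2 and mitosis at -0.64 (untreated) and glycolysis in MSA-2 over untreated at -0.11, with 135 lower genes (MSA-2), 376 higher in MSA-2 over untreated in Ero1l-high cells, and cycling of 30.4% (untreated) and of 54.2% and 71.7% in the others. Only cells below the cycling gate gave S phase -0.74 (MSA-2), G2 and mitosis -0.36 and -0.68, 118 lower genes (untreated), 35 in both, and 359 lower genes in MSA-2 over untreated of other cells. A leukocyte limit of 0.1% moved none.

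With 1 library of pooled tumors per treatment, no difference between treatments can be told apart from a difference between tumors, dissociations or runs. No paired analysis was possible because each treatment has 1 library. Depth limits genes such as Car9, seen in 14.98% and 14.3% of Ero1l-high cells at 8000 UMIs, and oxygen, protein and position in the tumor were not measured.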
